A study of Sus scrofa with 16 samples.

Results

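TMPRSS15 encodes enteropeptidase (also called enterokinase), and it was followed as 1 gene of the 25880 in single-cell count tables of pig small intestine. It was found by its symbol, which the files pair with the identifier ENSSSCG00000012019 and with no other row. The study took female mixed-breed pigs aged 7.5 weeks and prepared 10x Genomics 3' libraries, which count each captured transcript once by its molecular tag (UMI). The 4 regions were duodenum just past the pylorus (DUOD), jejunum about 3 feet further along (JEJ), and ileum 2 to 12 inches before the ileocecal valve, divided into pieces with Peyer's patches (IPP) and pieces without (NoPP). Each region has 4 sample titles but 1 pooled count table, and cells could not be assigned to a title. There are therefore no replicates, no test was made, and each interval given is a 95% interval that covers counting error only. No treatment or genetic change was part of the study, and cells were released from the tissue with EDTA, which frees epithelium and the lymphocytes within it.

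Enteropeptidase is a serine protease anchored in the brush border of the proximal intestine. It cuts pancreatic trypsinogen into trypsin, and trypsin then activates the other pancreatic zymogens, so the enzyme stands at the head of luminal protein digestion. It is itself made as a zymogen, and people born without it digest protein poorly. Brush border peptidases and carriers for peptides and amino acids act downstream of it on the products.

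Cells were kept at 1000 or more UMIs, 500 or more genes and at most 25% mitochondrial UMIs, which left 718 duodenal, 986 jejunal, 3273 IPP and 2084 NoPP cells. The median depth of a kept cell lay between 3646 and 4452 UMIs. The kept cells were sorted into classes by marker genes that do not include TMPRSS15, and a class name here means cells that carry its markers. DUOD enterocytes had UMIs of 13 of 13 enterocyte markers and of 10 of 10 epithelial markers, and those of JEJ did too. NoPP barcodes with 10-fold or more of their UMIs in the DUOD table were dropped, and pairs of regions then shared between 0 and 2 kept barcodes. None of the 56 JEJ, 6 IPP and 11 NoPP cells with a TMPRSS15 UMI had more UMIs under the same barcode in DUOD. Levels are given as CPM (UMIs of the gene over all UMIs of the class, scaled to counts per 1000000), beside UMIs per cell.

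TMPRSS15 was a transcript of duodenal enterocytes. The 203 DUOD enterocytes held 12335 of its UMIs, a level of 2380 CPM (2338 to 2423), and 189 of them (93.1%, Clopper-Pearson interval 88.7% to 96.2%) had at least 1 UMI. They carried 96.5% of the TMPRSS15 UMIs of all kept DUOD cells. The 186 JEJ enterocytes held 93 UMIs, or 27.3 CPM (22.0 to 33.5), and 35 of them had a UMI. The 161 IPP enterocytes held 1 UMI (0.384 CPM, 0.00973 to 2.14), and the 31 NoPP enterocytes also held 1 UMI (2.12 CPM, 0.0537 to 11.8).

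The drop along the gut was steep between the first pair of regions. The level in DUOD enterocytes was 87.2-fold that in JEJ enterocytes (71.1 to 108), a log2 ratio of -6.45 for JEJ over DUOD. Per cell the means were 60.8 UMIs in DUOD and 0.500 in JEJ, with median depths of 27351 and 7542 UMIs. The single UMIs of IPP and NoPP gave log2 ratios to DUOD of -12.60 (-17.90 to -10.12) and -10.13 (-15.44 to -7.65). The 2 ileal regions could not be told apart, since the ratio of NoPP to IPP enterocytes was 5.52 with an interval from 0.0703 to 433. With the mitochondrial limit at 10%, JEJ enterocytes held 67.5 CPM and the DUOD level was 29.8-fold theirs. With the dropped NoPP barcodes kept, the level in DUOD enterocytes was only 4.00-fold that in NoPP, on 390 UMIs in 139 cells.

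**Figure D1:**
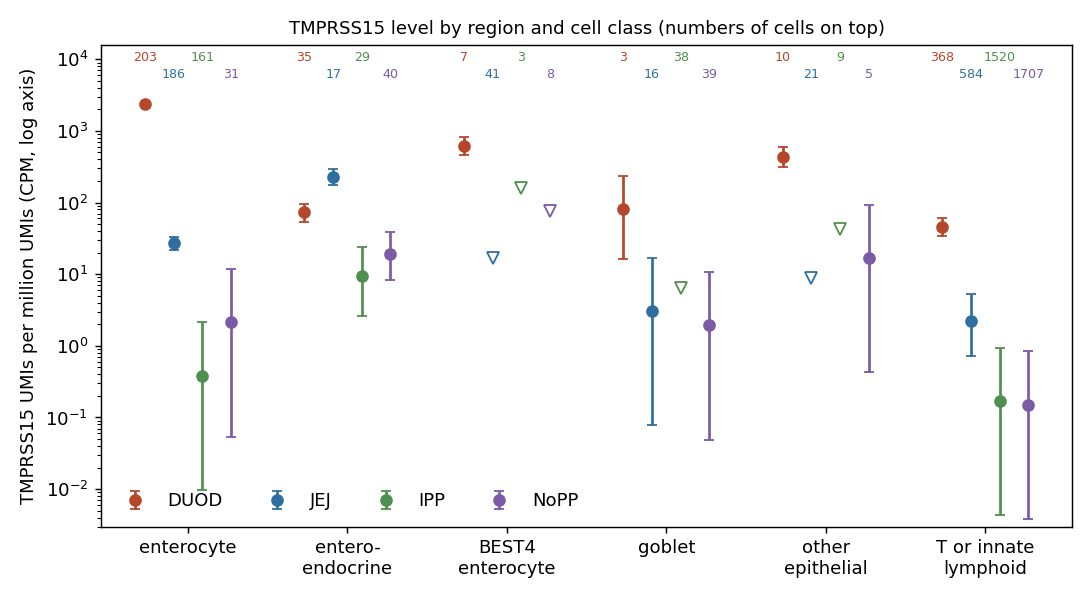
TMPRSS15 level (CPM, log axis) in 6 cell classes of the 4 regions, with exact 95% Poisson intervals as bars and the number of cells on top. Open triangles are the upper limits of classes with 0 UMIs. DUOD enterocytes stand at 2380 CPM above every other point, and enteroendocrine cells of JEJ stand above the enterocytes of JEJ.

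Of the 25 combinations of region and class with at least 10 cells, 10 held no TMPRSS15 UMI. Below DUOD enterocytes came other epithelial cells of DUOD (435 CPM, 312 to 591), enteroendocrine cells of JEJ (230 CPM, 176 to 296), enteroendocrine cells of DUOD (73.0 CPM, 54.0 to 96.5), T or innate lymphoid cells of DUOD (46.1 CPM, 34.6 to 60.1) and JEJ enterocytes. Each of these exceeded the next by more than counting error, the closest pair being enteroendocrine and lymphoid cells of DUOD with a ratio of 1.59 (1.05 to 2.38). From JEJ enterocytes downward no level differed from the next beyond counting error. That lower part held enteroendocrine cells of NoPP (19.4 CPM) and IPP (9.50 CPM), goblet cells of JEJ (3.06 CPM) and lymphoid cells of JEJ (2.25 CPM).

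TMPRSS15 was also present in free RNA. Barcodes of 21 to 500 UMIs, which hold mostly free RNA, carried TMPRSS15 at 1384 CPM of non-mitochondrial UMIs in DUOD and 95.2 CPM in JEJ, and the ileal values were 21.4 CPM for IPP and 160 CPM for NoPP. Lymphoid cells of DUOD, which are not known to make the enzyme, had a TMPRSS15 UMI in 41 of 368 cells (11.1%), at a mean of 0.147 UMIs per cell and a median depth of 2880 UMIs. The mean of the low barcodes of DUOD was 0.115 UMIs. On the same scale of non-mitochondrial UMIs, kept JEJ enterocytes (31.6 CPM) lay below the free RNA of JEJ, and enteroendocrine cells of JEJ (243 CPM) lay above it. Enteroendocrine cells of DUOD (78.0 CPM), IPP (10.6 CPM) and NoPP (21.03 CPM) lay below the free RNA of their own tables. The part of free RNA in the UMIs of lymphoid cells was not tested. In JEJ the same lymphoid class had a UMI in 4 of 584 cells (0.685%). After each cell was thinned to 2000 UMIs, the share with a UMI was 92.9% of 182 DUOD enterocytes (21 shallower cells left out), 8.82% of 306 DUOD lymphoid cells (62 left out), 5.41% of 148 JEJ enterocytes (38 left out) and 0.209% of 479 JEJ lymphoid cells (105 left out). Among enteroendocrine cells, none of which was left out in these regions, it was 8.57% of 35 in DUOD (1.80% to 23.1%) and 35.3% of 17 in JEJ (14.2% to 61.7%).

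The small epithelial classes of DUOD rested on single cells. Among 7 BEST4 enterocytes, an absorptive type with its own chloride and bicarbonate channels, 44 of 45 UMIs lay in 1 cell. Among 10 other epithelial cells, 35 of 41 UMIs lay in 1 cell. The 3 goblet cells, which make mucus, held 3 UMIs in all, and the 11 myeloid cells held 0, which allows up to 46.0 CPM at 3 UMIs. In JEJ the 41 BEST4 enterocytes (up to 13.6 CPM), the 12 crypt cells (up to 30.5 CPM) and the 21 other epithelial cells (up to 7.17 CPM) held 0, and 16 goblet cells held 1 UMI. Cells that met the gates of several classes were set aside as mixed, and the 11 of DUOD held 242 UMIs.

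Nearly every deep DUOD enterocyte carried TMPRSS15. Of the 14 cells without a UMI, 13 had under 5000 UMIs in all. The count in a cell ran from 0 to 206, with a median of 53. When the 159 cells of at least 5000 UMIs were thinned to 5000 each, the count ran from 0 to 36 with a median of 11, a mean of 12.0 and an SD of 6.56, and 2 cells were at 0. The variance was 3.58 times the mean, against a median of 2.08 for the 58 genes of like mean, among which TMPRSS15 was number 12 from the top. Beyond counting error this is a spread between cells of 46.4% of the mean. The distribution had 1 broad hump and no separate group at 0.

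The level also differed with the depth of the cell. It was 1490 CPM (1262 to 1746) in the 44 cells under 5000 UMIs, 2129 in 34 cells of 5000 to under 20000 UMIs, 2586 (2522 to 2650) in 79 cells of 20000 to under 40000 UMIs and 2244 in 46 cells of 40000 or more. In cells of at least 5000 UMIs it was 2077 CPM at a mitochondrial share of up to 10%, 2397 at over 10 to 15% and 2524 at over 15 to 25%. After thinning, the rank correlation of TMPRSS15 with depth was -0.04 and with the mitochondrial share 0.06 across the 159 cells, which share 1 pooled library. The part of depth in the level was not tested.

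**Figure D2:**
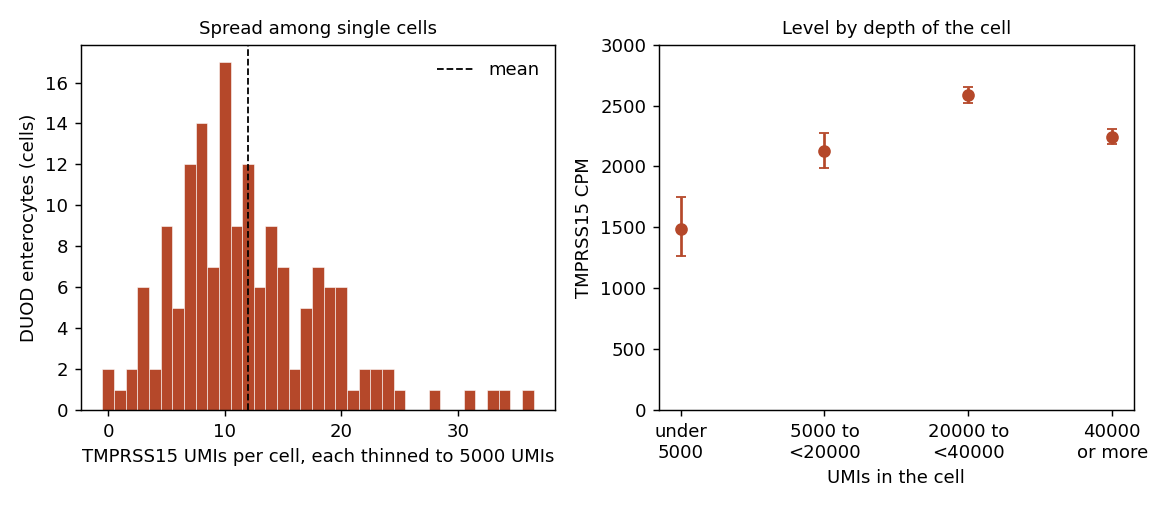
Left, number of DUOD enterocytes at each TMPRSS15 count after thinning each of 159 cells to 5000 UMIs, with the mean of 12.0 as a dashed line. Right, TMPRSS15 CPM with exact 95% Poisson intervals in DUOD enterocytes by the depth of the cell, from 1490 CPM in the shallowest cells to 2586 at 20000 to under 40000 UMIs.

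No gene followed TMPRSS15 closely from cell to cell. Spearman's rho was computed across the 159 thinned cells for the 2335 other genes with a UMI in at least 20% of them. None reached 0.4 (0% of genes) and none reached -0.4 (0%). At a limit of 0.2, set after the values were seen, 26 genes lay at or above 0.2 (1.11%) and 23 at or below -0.2 (0.985%). The range was -0.29 to 0.32, with a median of -0.00302. For comparison, the rho of TMPRSS15 with itself between 2 disjoint draws from the same cells was 0.71 (149 cells). That value holds for a gene with a mean of 12.0 UMIs per thinned cell. Counting error limits rho more for sparser genes, such as GOLGB1 (mean 0.484) and SEC16B (0.252), so a closer tie of such genes could be missed.

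The genes at the ends of this range changed with the draw of UMIs. In a second draw 4 of the 26 and 4 of the 23 stayed past 0.2, and at 10000 UMIs a cell 7 and 9 did. GOLGB1, a large Golgi membrane protein, had the highest rho at 0.32 but 0.08 in the second draw. TMEM253 fell from 0.28 to 0.06 and PRRG4 from 0.22 to -0.09. CA2, a cytosolic carbonic anhydrase, kept 0.22, 0.21 and 0.29 in the first, the second and the deeper draw but had 0.09 at 2000 UMIs. SLC4A7, a sodium bicarbonate cotransporter, ranged from 0.16 to 0.34 over the 4 draws. The other high genes were ATP10B, MAOA (a monoamine oxidase), ATP1B1 (a subunit of the sodium pump), SEC16B, ECPAS, LAMA3, GCLC (the first enzyme of glutathione synthesis), P4HB, STK17B and RAD50, each with a rho between 0.22 and 0.25.

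On the negative side stood ISG15, an interferon-induced ubiquitin-like protein, at -0.29 with a range of -0.29 to -0.14, and FOSL2 at -0.29 with -0.06 at 10000 UMIs. OAZ1, the antizyme that limits polyamine synthesis, ranged from -0.24 to -0.11. REG4 had -0.25, LGALS2 -0.26, PNPLA8 -0.26, LAMP1 -0.25, MVP -0.24 and YWHAB -0.23. All of these are weak correlations in sparse counts and are listed as a description only.

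**Figure D3:**
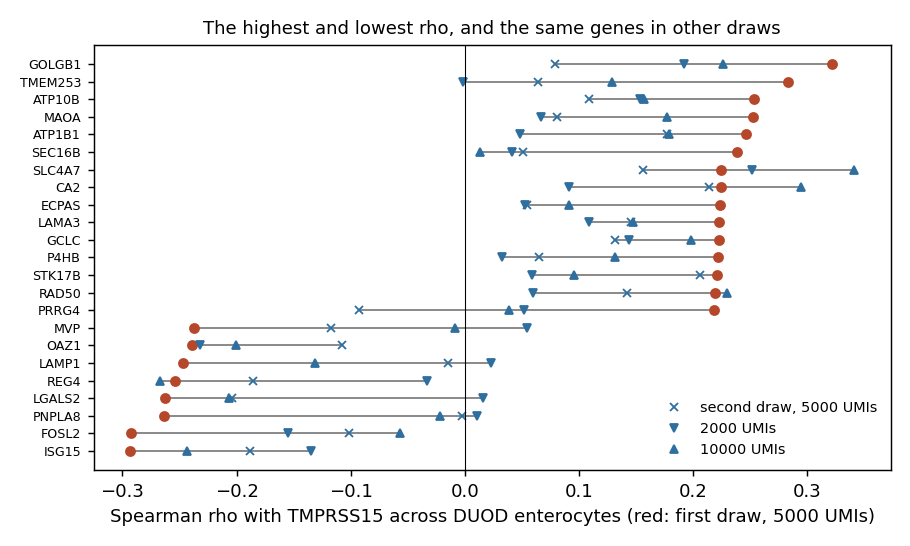
Spearman's rho with TMPRSS15 across DUOD enterocytes for the 15 highest and 8 lowest genes with a symbol. Red points are the first draw of 5000 UMIs per cell, crosses a second draw, and triangles draws of 2000 and 10000 UMIs. Most genes move toward 0 in the other draws, GOLGB1 from 0.32 to 0.08 among them.

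Gene groups of the enterocyte had few or no members past 0.2, as did all genes (1.11% at or above 0.2, 0.985% at or below -0.2). At these shares, a count of 0 in a list this short does not set a group apart from other genes. Of 10 brush border peptidases measured, 0 lay past 0.2 either way and the median rho was 0.03, against -0.00302 over all genes. ANPEP (aminopeptidase N) had 0.06, DPP4 (dipeptidyl peptidase 4) -0.01 and MEP1B (a meprin subunit) 0.14. Of 6 membrane serine proteases and their inhibitors 0 were past 0.2 (median -0.03), with TMPRSS2 at 0.10. Of 13 transcription factors 0 were past 0.2 (median -0.00445), with GATA4 at -0.02, PDX1 at 0.03, CDX2 at 0.08 and HNF4A at -0.09. Of 16 endoplasmic reticulum genes 0 were past 0.2 (median 0.04), as were 0 of 10 immediate early and stress genes (median 0.02).

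Of the genes that mark positions along the villus in mouse, few or none lay past 0.2. With 1.11% of all genes at or above 0.2 and 0.985% at or below -0.2, counts from lists this short are a description only. Of 7 villus tip genes 0 were past 0.2 (median 0.03), with APOA4 at 0.03. Of 10 genes of the villus middle 1 was, the lipoprotein assembly gene MTTP at 0.21, while FABP1 had -0.05 and FABP2 -0.10. Of 9 brush border structure genes 1 was at or below -0.2, the protocadherin CDHR5 at -0.20. None of the villus base and crypt genes was seen in enough cells to be measured, so that end of the villus was not covered. Of the 9 duodenal enterocyte genes of an earlier account of these cells that were measured, 2 were at or above 0.2, CA2 and the bicarbonate cotransporter SLC4A4 (0.20), where the share of all genes was 1.11%. That list was drawn from these same cells.

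TM4SF1, a membrane protein that splits DUOD enterocytes into cells with much and little of it, had a rho of -0.02 with TMPRSS15. With the 159 cells ordered by TM4SF1 into equal parts of 53, mean TM4SF1 per 5000 UMIs was 0.264, 5.40 and 17.9, and mean TMPRSS15 was 12.0 (SD 6.13), 11.8 (SD 7.04) and 12.2 (SD 6.59).

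Enterocytes of JEJ carried TMPRSS15 unevenly. Of the 93 UMIs, 61 lay in 9 cells with 3 or more, and the 4 highest cells, with 14, 13, 9 and 7 UMIs, held 46.2%. The 103 JEJ enterocytes of at least 5000 UMIs were ordered by sucrase-isomaltase (SI), a brush border disaccharidase. In the 35 cells lowest in SI (349 CPM of SI) TMPRSS15 stood at 47.0 CPM (32.4 to 66.0), in the middle 34 cells (983 CPM of SI) at 34.0 CPM (24.7 to 45.6), and in the 34 cells highest in SI (1902 CPM of SI) at 7.52 CPM (3.44 to 14.3). The lowest part exceeded the highest 6.25-fold (2.92 to 14.8), and a few cells carried this order. In the lowest part 24 of 33 UMIs lay in 5 cells with 3 or more, in the middle part 37 of 44 lay in 4 such cells, and the highest part had 0 such cells. The remaining cells held 9, 7 and 9 UMIs, or 15.7, 6.03 and 7.52 CPM, and cells with a UMI numbered 12, 9 and 7. Median depth was 10907, 38409 and 36570 UMIs in these parts, and its role, like that of the titles pooled in this table, was not tested. This order was examined after the values were seen.

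UMIs of TMPRSS15 were also found in enteroendocrine cells, the hormone-secreting cells of the epithelium, and in JEJ at a higher level than in enterocytes. The 17 enteroendocrine cells of JEJ held 60 UMIs in 10 cells, 230 CPM, which was 8.43-fold the level in JEJ enterocytes (5.99 to 11.8) and 102-fold that in JEJ lymphoid cells (41.5 to 326). The mean was 3.53 UMIs per cell, against 0.00856 in lymphoid cells and 0.00540 in the low barcodes of JEJ. On the scale of non-mitochondrial UMIs, enteroendocrine cells of JEJ held 243 CPM (185 to 313) and kept JEJ enterocytes 31.6 CPM. The 1571 JEJ barcodes over the mitochondrial limit in the enterocyte gate held 108 CPM (99.5 to 118), nearer the enteroendocrine level but still below it. The 4 such barcodes in the enteroendocrine gate held 0 UMIs. In DUOD the order was the other way round, with 49 UMIs in 12 of 35 enteroendocrine cells and a level 32.6-fold below that of enterocytes (24.6 to 44.1). DUOD enteroendocrine cells had 1.40 UMIs per cell against 0.147 in DUOD lymphoid cells, at median depths of 16084 and 2880 UMIs. At 2000 UMIs a cell the shares with a UMI were 8.57% and 8.82%. The 29 cells of IPP held 4 UMIs and the 40 of NoPP held 8. With the mitochondrial limit at 10% the JEJ ratio was 3.47. With the epithelial and enterocyte thresholds doubled and the enteroendocrine one unchanged, the level in DUOD enteroendocrine cells was 14.3-fold below that of enterocytes. With the mitochondrial limit at 10% it was 55.5-fold below.

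Markers of enterocytes were low in these cells but not absent. In JEJ enteroendocrine cells, the lipid-binding protein FABP1 stood at 0.407% of its enterocyte CPM, FABP2 at 0.685%, SI at 1.00%, RBP2 at 1.42% and APOA4 at 2.15%, while TMPRSS15 stood at 843%. The apolipoprotein APOA1 was the highest of those compared, at 8.39% with 38.1 UMIs per cell. Cells with more than a set amount of both marker groups had been set aside as mixed, so part of this gap is fixed by the gate. The 13 enterocyte markers summed to between 5.99 and 79.1 per 10000 UMIs in the 17 cells, against 103 to 2281 in JEJ enterocytes. CA2 shared the pattern, with 6.46 CPM in JEJ enterocytes and 357 CPM in JEJ enteroendocrine cells.

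The UMIs lay mainly in enteroendocrine cells with little peptide hormone. UMIs of SST, GIP, CCK, GHRL, SCT, MLN, GCG, PYY, NTS and GAST were summed in each of the 121 cells, and the sums left a gap between 89.6 and 500 per 10000 non-mitochondrial UMIs. The division at this gap was made after TMPRSS15 had been seen in single cells. Below it were 36 cells, of which 20 had a TMPRSS15 UMI and which held 89 UMIs. Above it were 85 cells, of which 11 had a UMI and which held 32 UMIs. Hormones made up 500 to 7041 per 10000 non-mitochondrial UMIs in these 85 cells, which lowers the CPM of every other gene in them.

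All 4 hormone-poor cells of DUOD had TMPRSS15, with 3, 6, 7 and 11 UMIs, and so did all 8 of JEJ, with 1, 2, 5, 5, 7, 9, 11 and 11 UMIs. Their levels were 679 CPM (447 to 988) in DUOD and 461 CPM (343 to 606) in JEJ, the latter 16.9-fold that of JEJ enterocytes (11.8 to 24.0). In DUOD the same cells stayed 3.51-fold below enterocytes (2.41 to 5.32). On the scale of non-mitochondrial UMIs the hormone-poor cells of DUOD (763 CPM, 503 to 1110) lay below the free RNA of DUOD at 1384 CPM. Those of JEJ (490 CPM, 365 to 644) lay above that of JEJ at 95.2 CPM. By count, the 4 DUOD cells had a median of 6.5 UMIs each (3 to 11) at a median depth of 9794 UMIs. Means were 0.115 UMIs in the low barcodes and 0.147 in lymphoid cells of DUOD. The part of free RNA in the hormone-poor cells was not tested. The ileum had less, with 4 UMIs in 3 of 14 hormone-poor cells of IPP (25.2 CPM, 6.87 to 64.5) and 7 UMIs in 5 of 10 of NoPP (68.2 CPM, 27.4 to 140).

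Hormone-rich cells had TMPRSS15 in a minority of cells. In DUOD 8 of 31 had a UMI (22 UMIs, 34.8 CPM), a level 19.5-fold below the hormone-poor cells (10.7 to 35.9). Hormones lower the CPM of other genes in hormone-rich cells, which adds to this ratio and to that of JEJ below. By count it was 22 UMIs in 31 cells against 27 UMIs in 4 cells. Of the 22 UMIs, 19 lay in the 7 cells led by secretin (SCT), at 219 CPM. In JEJ 2 of 9 had a UMI (9 UMIs, 59.9 CPM), both led by neurotensin (NTS), and the hormone-poor level was 7.70-fold higher (3.75 to 17.8). In IPP 0 of 15 cells had a UMI, which allows up to 11.4 CPM at 3 UMIs, and in NoPP 1 of 30 did. The 11 DUOD cells led by somatostatin (SST) held 1 UMI (3.31 CPM) and the 7 led by cholecystokinin (CCK) held 1 (6.52 CPM).

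**Figure D4:**
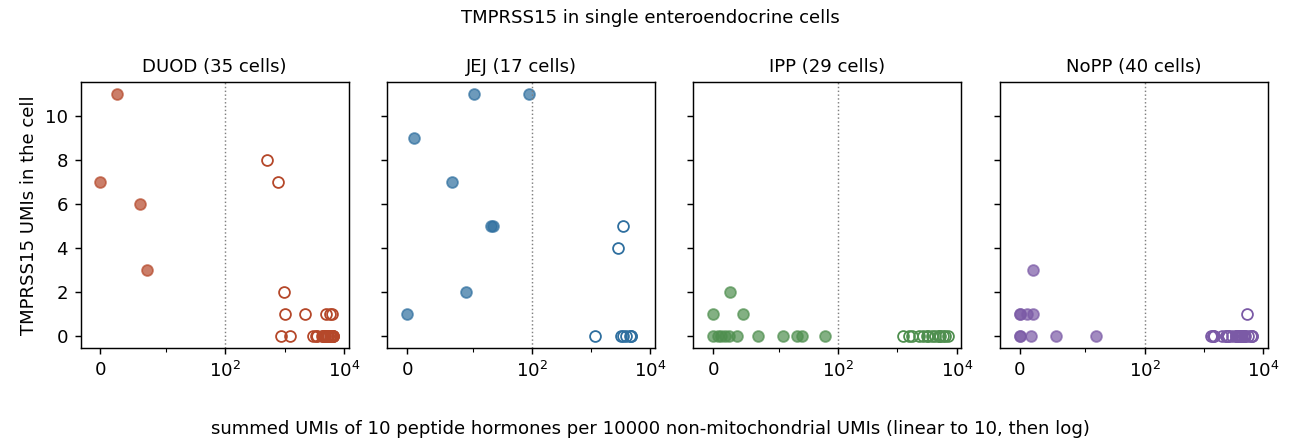
TMPRSS15 UMIs in each of 121 enteroendocrine cells of the 4 regions, against the summed UMIs of 10 peptide hormones per 10000 non-mitochondrial UMIs (linear to 10, then log). Filled points lie below the dotted line at 100 and open points above it. All filled points of DUOD and JEJ lie above 0, with up to 11 UMIs, while most open points lie at 0.

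The hormone-poor cells shared other genes across regions. Chromogranin A (CHGA), a protein of secretory granules, ran from 15149 to 20642 CPM in them and from 683 to 2431 CPM in hormone-rich cells. The enkephalin precursor PENK ran from 629 CPM in DUOD to 8728 CPM in JEJ and had 0 UMIs in all hormone-rich cells. The transcription factor LMX1A, known from serotonin-producing cells in mouse, stood at 235 to 536 CPM against 0 to 6.66 CPM. DDC, the decarboxylase that makes serotonin and dopamine, stood at 292 to 534 CPM against 63.4 to 136 CPM. CHGA belongs to the markers that chose the class, and PENK, LMX1A and DDC do not. A cell with few hormone UMIs passes the enteroendocrine gate only through other markers such as CHGA. The contrast in CHGA is therefore partly fixed by the gate and the division.

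Other genes of serotonin synthesis, storage and control did not share this pattern in every region. SLC18A2, a vesicular monoamine transporter, had 0 UMIs in the hormone-poor cells of all 4 regions, against 1.58 to 53.3 CPM in hormone-rich cells. TPH2, a neuronal tryptophan hydroxylase, had 0 in both. TPH1, the other tryptophan hydroxylase, was not compared between these groups, so the values of TPH2 do not cover that enzyme. FEV, a transcription factor of serotonin neurons, had 0 UMIs in hormone-poor cells of DUOD and JEJ and 25.2 and 19.5 CPM in those of IPP and NoPP. SLC18A1, the other vesicular transporter, had 0 in DUOD and 19.5 to 37.8 CPM in the other regions. GCH1, which makes a cofactor of serotonin synthesis, stood at 0 CPM against 71.3 in hormone-rich cells of DUOD and at 54.3 against 147 in JEJ, while in IPP (75.6 against 57.2) and NoPP (87.7 against 71.1) the hormone-poor cells had the higher value.

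Some enterocyte genes also had a higher CPM in the hormone-poor cells of DUOD and JEJ than in the hormone-rich cells, where hormones lower the CPM of other genes. FABP1 stood at 176 CPM (7 UMIs) against 68.1 in DUOD and at 172 (19 UMIs) against 86.6 in JEJ. APOA4 stood at 50.3 CPM (2 UMIs) against 41.2 in DUOD and at 109 against 59.9 in JEJ. APOA1 stood at 3067 against 2034 CPM in DUOD and 3636 against 1638 in JEJ. Per cell the order in DUOD was the reverse for both. APOA4 had 2 UMIs in 4 hormone-poor cells against 26 in 31 hormone-rich cells, and APOA1 had 122 against 1284. SI had 1 UMI in hormone-poor and 2 in hormone-rich cells of JEJ, and 0 in those of DUOD. The part of enterocyte RNA in the TMPRSS15 of these cells was not tested.

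Other genes of protein digestion ran against TMPRSS15 along the gut. Of 2510 genes at 50 CPM or more in enterocytes of DUOD or JEJ, JEJ was 2-fold higher or more for 275 (11%) and 2-fold lower or more for 276 (11%), with a median log2 ratio of 0.04. A larger fall than that of TMPRSS15 was seen for 16 of them. Of 11 brush border peptidases past that level, JEJ was 2-fold higher or more for 9 and 2-fold lower for 0, with a median log2 ratio of 1.52. ANPEP had a DUOD level of 427 CPM and a JEJ level of 1110 CPM, and the ileal levels were 2420 CPM in IPP and 3142 CPM in NoPP. ENPEP (aminopeptidase A) stood at 66.8 CPM in DUOD, 564 in JEJ and 2725 in IPP. MME (neprilysin) stood at 48.0 CPM in DUOD and 391 in JEJ. ACE, a dipeptidyl carboxypeptidase, went from 2 UMIs in DUOD to 80.5 CPM in JEJ. MME and ACE passed the level only through JEJ. DPP4 and the dipeptidase DPEP1, with log2 ratios of 0.49 and -0.42, were within 2-fold.

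Carriers of the products that passed the same level of 50 CPM in DUOD or JEJ were also mostly higher in JEJ. Of 8 peptide and amino acid carriers or their partners, 6 had a level 2-fold or more higher in JEJ and 0 a level 2-fold or more lower (median log2 ratio 1.39). SLC6A19, SLC7A7, SLC3A2 and SLC43A2 passed only through their JEJ level, so this count is shaped by the limit. Under the limit, SLC1A1 (22.4 CPM in DUOD, 5.87 in JEJ) and SLC6A20 (32.6 and 13.8) were over 2-fold lower in JEJ. SLC36A1 (8.30 and 20.6) was over 2-fold higher. SLC6A19, the main carrier of neutral amino acids, stood at 9.65 CPM in DUOD and 247 in JEJ, a log2 ratio of 4.68. SLC15A1, the carrier of di- and tripeptides, had a log2 ratio of 0.66, and SLC3A1 was lower in JEJ with one of -0.40. All 3 disaccharidases measured were higher in JEJ, and all passed the limit only through JEJ. SI stood at 4.25 CPM in DUOD and 1147 in JEJ, and MGAM (maltase-glucoamylase) at 17.9 and 492 CPM.

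The other membrane serine proteases differed less than TMPRSS15. Of 7 proteases and inhibitors, 2 were at least 2-fold lower in JEJ, the broadly expressed TMPRSS2 (log2 ratio -1.05) and ST14, or matriptase (-1.35). SPINK1, a secreted inhibitor of trypsin, was higher in JEJ, at 483 CPM against 66.0 in DUOD, and was near 0 in the ileum with 0.384 CPM in IPP. The matriptase inhibitors SPINT1 and SPINT2 had log2 ratios of -0.17 and -0.70. F2RL1, the receptor that trypsin cleaves, had a DUOD level of 220 CPM and a JEJ level of 49.9 CPM, with ileal levels of 184 CPM (IPP) and 176 CPM (NoPP). Hepsin (HPN) had 0 UMIs in enterocytes of the 4 regions and between 52.2 and 102 CPM in their enteroendocrine cells.

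Pancreatic zymogens and enzymes were nearly absent from enterocytes. Of 17 genes on this list 10 were matched in the files. PRSS2, a trypsinogen and so of the kind that enteropeptidase cuts, had 0 UMIs in enterocytes of every region. The same held for CTRC and CPB1, zymogens that trypsin activates, and for the lipases PNLIP and CEL and the phospholipase PLA2G1B. CPA1, a pancreatic carboxypeptidase, had 61 UMIs in DUOD enterocytes (11.8 CPM). Colipase (CLPS) had 199 CPM in enteroendocrine cells of JEJ and 32.8 CPM in those of DUOD, with 0.193 CPM in DUOD enterocytes.

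GATA4 and PDX1, transcription factors of the proximal gut, differed less than 2-fold between DUOD and JEJ. GATA4 stood at 67.0 CPM in DUOD enterocytes and 76.6 CPM in those of JEJ, with 0.384 CPM in IPP and 0 in NoPP. PDX1 stood at 49.6, 31.1, 0.769 and 0 CPM in the same order. CDX2, which acts along the whole intestine, stood at 52.9, 84.6, 191 and 193 CPM, and HNF4A at 86.3, 85.4, 108 and 140 CPM. Of 14 factors past the level limit, 1 was at least 2-fold lower in JEJ (KLF4, log2 ratio -2.29) and 1 higher (MAF, 2.07), with a median of 0.29.

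**Figure D5:**
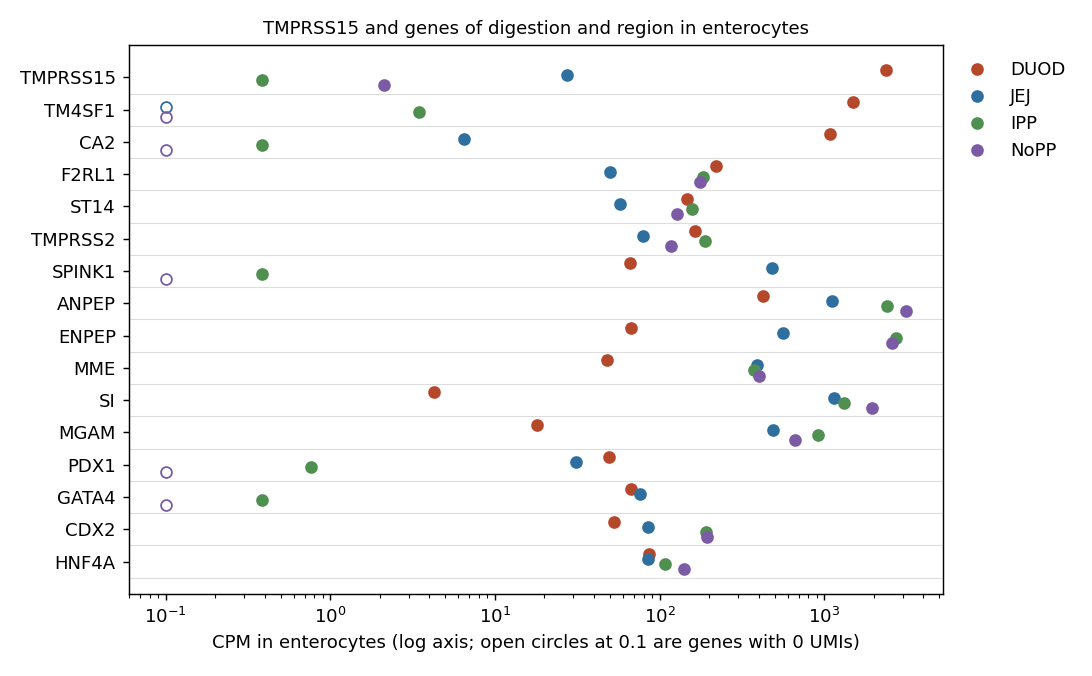
CPM in enterocytes of the 4 regions (log axis) for TMPRSS15 and 15 genes of digestion and region, with 1 point per region and open circles for 0 UMIs. TMPRSS15 stands at 2380 CPM in DUOD and 27.3 in JEJ, while ANPEP, ENPEP, MME, SI and MGAM are higher in JEJ and GATA4 stands at 67.0 and 76.6 CPM in DUOD and JEJ.

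Across the 25 profiles of region and class, 7056 genes at 50 CPM or more in at least 1 profile were compared with TMPRSS15 by Pearson's r of log2(CPM + 10). No gene reached 0.9 (0%). The profiles of a region share 1 library, so r is a description. Of the genes with a symbol, the most alike were the annexin ANXA10 (0.89) and coagulation factor F12 (0.89), followed by ADGRG2 (0.83), CA2 (0.83), PROM2 (0.82), IGFBP7 (0.82), GPER1 (0.76), the tight junction protein CLDN18 (0.75), TM4SF1 (0.74) and SULF2 (0.73). F12 stood at 58.8 CPM in DUOD enterocytes, 9.69 in JEJ enterocytes and 42.2 in JEJ enteroendocrine cells. ANXA10 stood at 246 CPM in DUOD enterocytes and 3.84 in JEJ enteroendocrine cells. Without DUOD enterocytes, r was 0.90 for IGFBP7, 0.85 for F12, 0.80 for ANXA10 and CA2, and 0.61 for TM4SF1.

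In the RefSeq annotation of Sscrofa11.1, used here for the order of genes only, TMPRSS15 lies on chromosome 13 between CHODL and NCAM2. Both had 0 UMIs in enterocytes of every region. Further out, BTG3 stood at 15.2 CPM in DUOD and 15.3 in JEJ enterocytes, and MRPL39 at 31.6 and 26.7, while JAM2 had 0 UMIs in DUOD enterocytes. C13H21orf91, which lies between BTG3 and CHODL, was not found among the measured genes.

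Most TMPRSS15 UMIs of the tables lay outside the kept cells. Of 44429 in DUOD, 28.8% were in kept cells, 43.2% in barcodes over the mitochondrial limit and 28.0% in barcodes under the depth limits. Of 1597 in JEJ, 10.8% were in kept cells. When the same enterocyte gate was applied to barcodes over the mitochondrial limit, 1948 barcodes of DUOD held 2590 CPM of non-mitochondrial UMIs (2552 to 2628), against 2790 in kept enterocytes. The 1571 such barcodes of JEJ held 540 UMIs, 108 CPM (99.5 to 118), which is 3.43-fold the 31.6 CPM of kept JEJ enterocytes. The level in DUOD was 23.9-fold that in JEJ among these barcodes (21.9 to 26.1). The 765 of IPP held 7 UMIs (3.15 CPM). The 374 of NoPP held 220 UMIs, 208 CPM (182 to 238), against 2.52 in kept NoPP enterocytes, or 107 CPM without the barcodes that were richer in DUOD. The level in DUOD was 12.4-fold that in NoPP among barcodes over the limit (10.9 to 14.3), against 1108-fold among kept enterocytes on the same scale.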

How the data were processed

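The deposited tables hold raw UMI counts per gene and barcode, 1 unfiltered matrix for each region with 6794880 listed barcodes. They were written by Cell Ranger 4 per the file headers, and version 4.0.6 per the submitters' processing notes. The genome build is not given in the sources used here. Of 25880 genes, 17733 had a symbol in the files and 977 more were matched through a table of gene names. Columns of other samples not used numbered 0.

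Cells were kept at 1000 UMIs, 500 genes and 25% of UMIs from 13 mitochondrial genes. Classes came from marker UMIs per 10000 non-mitochondrial UMIs: epithelial cells needed 20 with 3 markers, enterocytes and enteroendocrine cells 100 with 3 markers, goblet cells 200, BEST4 enterocytes 100 and lymphoid cells 50. These thresholds were set after the files were seen. Cells of several gates (141 in all) were set aside as mixed, which was the treatment of doublets, and 704 cells met no gate. A score against simulated doublets was an alternative.

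CPM used summed UMIs with exact Poisson intervals, ratios exact conditional intervals and shares Clopper-Pearson intervals. Levels were set across tables of separate libraries by CPM alone. A class at 0 was given the limit of 3 UMIs. Spearman's rho used cells thinned without replacement to 5000 UMIs. Named genes were the 15 highest and 10 lowest rho, the 10 highest r over profiles, and up to 5 members of each list with a few fixed genes. Of these, 1 gene is not reported here. The gene and the lists were chosen with earlier results of these data known. The scripts were tested on simulated data. Python 3.11.15, numpy 2.4.6, scipy 1.17.1, pandas 2.3.3, scikit-learn 1.9.0 and matplotlib 3.10.9 were used.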

Additional observations from a re-analysis of the deposited data

Results flagged for a closer look

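The level in enteroendocrine cells relative to kept enterocytes had opposite signs in the 2 upper regions, with a log2 ratio of 3.08 in JEJ and -5.03 in DUOD. In JEJ, enterocyte barcodes over the mitochondrial limit held 108 CPM of non-mitochondrial UMIs, against 31.6 in kept enterocytes and 243 in enteroendocrine cells. The difference was not tested, since each region is 1 pooled table.

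TMPRSS15 was seen in barcodes that the comparisons of kept cells between regions did not use. Barcodes over the mitochondrial limit held 19206 UMIs in DUOD and 641 in JEJ, where the low barcodes of free RNA held 8326 and 400.

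The 121 NoPP barcodes dropped because their UMIs in the DUOD table were 10-fold or more held 412 TMPRSS15 UMIs, against 13 in the 2084 kept NoPP cells. Of the 2281 TMPRSS15 UMIs in the whole NoPP table, 89.2% lay in barcodes with at least as many UMIs in DUOD, which held 10.3% of all NoPP UMIs. The same share was 6.64% in JEJ and 49.3% in IPP. In the NoPP enterocyte gate over the mitochondrial limit, 110 of 220 UMIs lay in 9 barcodes richer in DUOD, and 2 of the other 7 barcodes held 81 and 24.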

How the results depend on the processing

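No paired analysis was possible because cells could not be assigned to sample titles, and for the same reason no title could be left out. No log2 ratio changed sign under any alternative run. The cause of each shift below was not tested. With a mitochondrial limit of 10%, 69 DUOD enterocytes gave 2014 CPM and 85.5% with a UMI, and log2 ratios of -4.90 for JEJ, -5.42 for IPP and -3.09 for NoPP over DUOD (IPP and NoPP then held 0 UMIs, so both are bounds at 3 UMIs), -5.79 for enteroendocrine cells of DUOD and 1.80 for those of JEJ. Only 34 cells entered rho there, and 24 genes lay at or above 0.4, 21 at or below -0.4, 309 at or above 0.2 and 327 at or below -0.2. With a limit of 40% the values were 2329 CPM, a log2 ratio of -4.12 for NoPP, and 8 and 1 genes past 0.2. With shared NoPP barcodes kept, the NoPP ratio was -2.0. With the epithelial and enterocyte gate thresholds doubled and the others unchanged, the DUOD enteroendocrine ratio was -3.84 and 36 genes lay at or below -0.2. With the gate free of enterocyte markers, 42 genes lay at or above 0.2. Without mitochondrial UMIs the level was 2790 CPM, and 50 genes lay at or above 0.2. The mean of the cells' own CPM was 2242, with log2 ratios of -5.84 for JEJ and -4.28 for DUOD enteroendocrine cells. At 2000 UMIs 1 gene, ENTPD5, reached 0.4. At 10000 UMIs 54 and 79 genes passed 0.2 and -0.2, and with genes seen in 5% of cells 52 and 44 did. The lower depth limits, the doublet scores and leaving out the highest cell moved no level, share or ratio beyond its counting interval. Depth limits the ileal levels to single UMIs.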
